A study of Mus musculus with 2 samples.

Results

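The odorant receptor (OR) genes Olfr830 to Olfr985 of the mouse were described across single cells of the olfactory epithelium. Members were the features with a symbol from Olfr830 to Olfr985 and no pseudogene suffix, which gave 105 of the 1104 Olfr genes in the deposited feature list; 3 features of the same number range carry a pseudogene suffix and were left out. The series holds 1 library from a female of 9 weeks with the genotype Tg(Or8a1-OR1A1,-MAPT/mCherry)D736Feins/+, a transgene for the human receptor OR1A1 on the strain of the same name ending in /J. The other library comes from a female of 8 weeks with the genotype WT, whose strain label joins 10G4-V2.2-#7/Jax with Bl6/129SF1/J. Strain and age thus differ along with genotype and cannot be told apart from it. The transgene feature had 4864 UMIs over all barcodes of the transgenic and 6 of the wild-type library, and a feature named 10G4, which the labels do not explain, had 279 and 288. The libraries are droplet-based single-cell RNA-seq read from transcript 3′ ends and counted by unique molecular identifiers (UMIs, 1 per captured transcript). With 1 library per genotype no significance test was made; shares carry exact binomial (Clopper-Pearson) 95% intervals, which cover counting error only.

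A mature olfactory sensory neuron usually transcribes a single OR gene, from a single allele. The neuron starts from globose basal cells (GBC) and passes through immediate neuronal precursors (INP) and an immature stage marked by Gap43, and in the early immature stage many OR genes can be transcribed at a low level before one takes over. Each OR gene is used within a zone of the epithelium: dorsal neurons carry Nqo1 and Acsm4 and ventral neurons carry Ncam2, Nrp2 and the nuclear factors Nfia, Nfib and Nfix. OR genes lie in clusters along the chromosomes.

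All 105 members lie on chromosome 9 in the RefSeq table of GRCm38.p6, in the order of their numbers and in 2 blocks more than 1000 kb apart. The first block runs from Olfr830 to Olfr873 and holds 29 members, and the second runs from Olfr874 to Olfr985 and holds 76. By the family names among the RefSeq synonyms (MOR numbers) the members fall into 26 families, of which MOR171 is the largest with 26 members, followed by MOR162 with 10, MOR224 with 8 and MOR165 with 7. The coding sequence closest to each member's own among the members had a median identity of 86.6% (58.4 to 98.1%), and for 68 members that closest relative lay within 3 numbers. For 16 members the closest was at least 95% identical, so that reads of such genes may be split or lost in counting. Olfr844 is listed by RefSeq as a transcribed pseudogene. Olfr160, the mouse gene cited as Or8a1 in the name of the transgene, lies directly before Olfr874 in the gene order and is not a member.

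The DNA upstream of 4 members is shown because they led several neurons each (below), stand on both sides of the gap between the blocks, and have an annotated start that lies ahead of the coding start with no annotated exon in the window. Each sequence is the 250 bases before the RefSeq start in GRCm38.p6, 5′ to 3′ on the strand of the gene, and capitals mark the letters TAATTA, or TAATTG and its reverse complement CAATTA, cores bound by homeodomain factors such as Lhx2.

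Olfr868 (first block, chr9:20098376-20098625, + strand): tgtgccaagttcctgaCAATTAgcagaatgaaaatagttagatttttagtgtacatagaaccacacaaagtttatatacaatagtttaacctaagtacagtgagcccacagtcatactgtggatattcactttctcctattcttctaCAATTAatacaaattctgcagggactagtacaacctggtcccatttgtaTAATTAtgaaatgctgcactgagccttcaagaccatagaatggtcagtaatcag
Olfr875 (second block, chr9:37772387-37772636, + strand): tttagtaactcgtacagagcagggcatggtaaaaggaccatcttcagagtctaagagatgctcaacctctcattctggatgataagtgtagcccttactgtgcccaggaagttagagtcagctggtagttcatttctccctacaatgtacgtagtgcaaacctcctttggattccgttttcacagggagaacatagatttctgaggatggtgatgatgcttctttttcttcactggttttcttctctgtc
Olfr878 (second block, chr9:37918298-37918547, + strand): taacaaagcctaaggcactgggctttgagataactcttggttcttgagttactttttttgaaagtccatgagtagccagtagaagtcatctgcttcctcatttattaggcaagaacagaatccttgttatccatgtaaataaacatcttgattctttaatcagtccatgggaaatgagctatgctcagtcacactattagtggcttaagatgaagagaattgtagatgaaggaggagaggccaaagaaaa
Olfr881 (second block, chr9:37992242-37992491, + strand): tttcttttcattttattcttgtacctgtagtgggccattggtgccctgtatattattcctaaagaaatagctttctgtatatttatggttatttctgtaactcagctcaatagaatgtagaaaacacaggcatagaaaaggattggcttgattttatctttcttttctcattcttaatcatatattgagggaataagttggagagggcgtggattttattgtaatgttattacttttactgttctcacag

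The window of Olfr868 held 3 such cores and those of Olfr875, Olfr878 and Olfr881 held none. Over the 92 windows of the 91 members in the table, TAATTA on either strand was found in 41.7% of the 24 first-block windows, in 17.6% of the 68 second-block windows, in 17.4% of the 849 windows of the other ORs and in 4.84% of all 32851 windows of the table. TAATTG on either strand was found in 25%, 17.6%, 23% and 7.17% of them. The Ebf-type letters CCCNNGGG were found in 1.09% of the members' windows, 2.94% of those of the other ORs and 11.8% of all windows. The table's start was the coding start itself for 61 of the 92 member windows, so most of these windows lie next to the coding sequence rather than at a mapped promoter. Only 14 member windows began ahead of the coding start and were clear of annotated exons, and TAATTA and TAATTG were each found in 5 of them. Among these, the first-block windows of Olfr855 and Olfr871 held no core and the second-block windows of Olfr952 and Olfr979 held 1 each. The contrast between the windows shown thus does not hold for every member. Olfr905 has no entry in the table.

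The transgenic library held 70572741 UMIs and the wild-type library 55701219 UMIs, of which 1745 and 1117 cells were kept (median depths of 14440 and 12983 UMIs). The kept cells shared 1 cell barcode. Neurons were taken from the 5 clusters whose best marker class was the mature sensory neuron and are called Omp-high neurons here (784 transgenic, 474 wild type). One of these clusters, led by Esp22, Calb2 and Stmn4, kept no class name under the naming rule, since other markers than those of mature neurons led it, but its Omp level was 3890 and 4720 CPM (UMIs scaled to a total of 1000000), against 4930 and 4980 CPM in the others. An OR led a cell if it had the most UMIs of all ORs there and at least 3. By this rule 571 transgenic and 438 wild-type Omp-high neurons were led by an OR.

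Members led 35 neurons in each library, and most members led none. They led 6.13% of the OR-led neurons of the transgenic library (4.31 to 8.42%) and 7.99% of those of the wild type (5.63 to 10.9%), while they are 9.51% of the OR genes. In the transgenic library 28 of 105 members led at least 1 neuron (26.7%), beside 32.3% of all ORs, and in the wild type 24 of 105 (22.9%), beside 26.2% of all ORs. By UMIs the members gave 7.63% and 10.3% of the OR transcripts of the Omp-high neurons. The first block led 10 and 6 neurons and the second block 25 and 29. In all 46 members led a neuron in either library and 59 led none. This count was not made over all ORs, so it does not set the members apart. Olfr868, Olfr878, Olfr884, Olfr916, Olfr959 and Olfr969 led in both libraries, which is 21.4% of the leading members of the transgenic library and 25% of those of the wild type. For all ORs the corresponding shares were 37.0% and 45.7%.

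Olfr959, a member of family MOR224 in the second block with the RefSeq synonym M34, had the highest leading counts of the members. It led 2 transgenic neurons with 502 and 655 UMIs and 4 wild-type neurons with 540, 543, 583 and 613 UMIs, and it alone led at least 2 neurons in each library. The ranges of the libraries overlapped, and no other member had a leading count above 399 in an Omp-high neuron. Scaled to the depth of the cell these counts were 32380 to 54080 CPM. Among the 243 ORs that led at least 2 neurons over both libraries, Olfr959 had the second highest median leading count, 563 UMIs, after Olfr48 with 686. It led 6 of the 19 neurons in which any OR reached 500 UMIs.

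Olfr969, a MOR171 gene of the second block, led as many neurons as Olfr959, with 129 UMIs in 1 transgenic neuron and 70, 75, 157, 163 and 164 UMIs in 5 wild-type neurons. Its lowest and highest levels differed 2.96-fold by CPM, from 8923 to 26390 CPM. Olfr868, a MOR145 gene and the only first-block member to lead more than 1 neuron, led 4 transgenic neurons with 123, 131, 204 and 239 UMIs and 1 wild-type neuron with 203 UMIs. The wild-type value lay within the transgenic range.

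Olfr878, the single MOR163 gene, led 1 transgenic neuron with 104 UMIs and 3 wild-type neurons with 82, 166 and 196 UMIs. Olfr933 (MOR171) led 3 transgenic neurons with 68, 73 and 116 UMIs and no wild-type neuron. Olfr881 (MOR162) led 2 transgenic neurons with 254 and 261 UMIs and no wild-type neuron. Neurons that chose the same gene were thus within 2.96-fold of each other by CPM for each of the 10 members leading 2 or more, while the medians of these genes ranged from 38 UMIs (Olfr938) to 563 (Olfr959).

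The lowest medians belonged to 3 second-block genes. Olfr875 (MOR161) led 2 wild-type neurons with 43 and 45 UMIs, Olfr938 (MOR171) led 2 with 34 and 42 UMIs, and Olfr884 (MOR162) led 1 neuron in each library with 38 and 43 UMIs. Over all member-led neurons the leading count had a median of 116 UMIs in transgenic neurons (15 to 655) and 130 in wild-type neurons (29 to 613), beside 95 and 115 UMIs in neurons led by other ORs. The lowest belonged to Olfr835 in a transgenic neuron that also held 12 UMIs of the transgene.

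**Figure D1:**
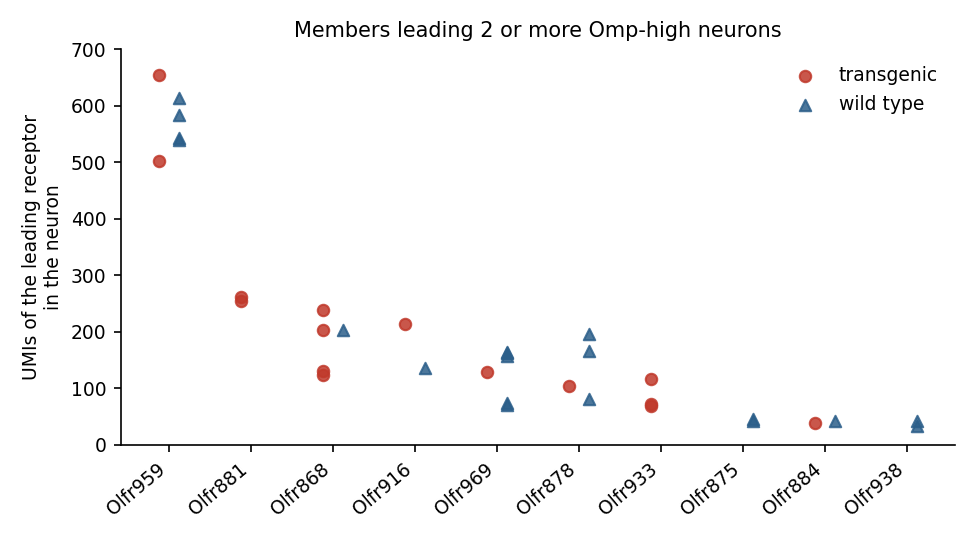
UMIs of the leading receptor in each Omp-high neuron (y axis, linear) for the 10 members that led 2 or more neurons (x axis, ordered by median); circles are transgenic and triangles wild-type neurons, 1 point per neuron. Olfr959 lies between 502 and 655 UMIs in both libraries, whereas Olfr875, Olfr884 and Olfr938 lie between 34 and 45.

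In member-led neurons a further OR was common at 1 or 2 UMIs and infrequent above that. A second OR had a UMI in 21 of 35 transgenic and 23 of 35 wild-type neurons, and in 20 and 22 of these it had 1 or 2 UMIs. The leading member gave a median of 99.4% of the OR UMIs of the cell in both libraries, and at the lowest 89.8% (transgenic) and 93.5% (wild type). A further OR reached 3 UMIs in 1 of 35 neurons of each library (2.86%, 0.0723 to 14.9%), beside 8.96% and 3.72% of the neurons led by other ORs. In the transgenic library this was Olfr655, which is not a member, with 14 UMIs beside 123 UMIs of Olfr868. In the wild type it was Olfr905 with 5 UMIs beside 127 UMIs of Olfr904, its direct neighbour in number and also of family MOR167; their coding sequences are 81.4% identical.

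That neuron gave the only pair of members at 3 UMIs each, so the share of pairs with neighbouring numbers rests on 1 pair in the wild type and on none in the transgenic library. At 1 UMI or more, 3 transgenic and 2 wild-type pairs of members were found in Omp-high neurons. Of these, Olfr844 (50 UMIs) with Olfr847 (1), Olfr933 (73) with Olfr934 (1) and the Olfr904 pair differ by at most 3 numbers. Olfr968 (265 UMIs) with Olfr972 (1) differ by 4 and are 94.9% identical, and Olfr943 (2) with Olfr862 (1) lie in different blocks. The fainter gene of each pair but the Olfr904 pair had a single UMI.

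The zone markers of the neurons separated the blocks. In each neuron the summed CPM of the dorsal markers Nqo1, Acsm4 and Robo2 was compared with that of the ventral markers Ncam2, Nfia, Nfib, Nfix and Nrp2. The dorsal sum was the larger in 0 of 10 transgenic (0 to 30.8%) and 1 of 6 wild-type neurons (16.7%, 0.421 to 64.1%) led by the first block. For the second block it was the larger in 21 of 25 transgenic (84.0%, 63.9 to 95.5%) and 26 of 29 wild-type neurons (89.7%, 72.6 to 97.8%). For neurons led by other ORs the shares were 33.6% (29.6 to 37.8%) and 35.5% (30.8 to 40.4%), above the first block and below the second in both libraries. The intervals of the second block lay above those of the other ORs in each library, whereas those of the first block overlapped them in each. The intervals treat neurons of 1 animal as independent, although several were led by the same gene, and no test over animals was possible.

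By CPM, Nqo1 and Acsm4 were higher in the second block and each ventral marker higher in the first, in both libraries. For Nfia this rests on 3 and 0 UMIs (first and second block) in the transgenic library and on 4 and 3 in the wild type. The intervals of the share of neurons with a UMI overlapped between the blocks for Nfia and Nrp2 in both libraries. In the wild type they also did so for Ncam2 and Nfix. Nqo1, an oxidoreductase of dorsal neurons, had no UMI in the 10 first-block neurons of the transgenic library, against 620 CPM in second-block neurons and 343 CPM in neurons led by other ORs. In the wild type it was at 212, 1270 and 447 CPM, and all 16 of its first-block UMIs came from 1 neuron. Acsm4 was at 7.22, 545 and 186 CPM in the transgenic library and at 39.7, 393 and 157 CPM in the wild type. Of the ventral markers, Nfix was at 585 CPM (first block), 125 CPM (second block) and 440 CPM (other ORs) in the transgenic library, and at 529, 54.9 and 437 CPM in the wild type. Ncam2, a cell adhesion molecule, was at 238, 47.0 and 138 CPM and at 146, 11.6 and 130 CPM. Robo2, an axon guidance receptor, was found in 10 of 10 first-block and 24 of 25 second-block neurons of the transgenic library, at 346 and 230 CPM, and so did not separate them. Against neurons led by other ORs the first block was not set apart by every ventral marker. Nfia was lower there in both libraries (21.6 against 24.3 and 52.9 against 58 CPM), and in the wild type so were Nfib (185 against 232 CPM) and Nrp2 (132 against 151 CPM).

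The exceptions came from MOR149 in the first block and from MOR165 and MOR171 in the second. The first-block neuron with a larger dorsal sum was led by Olfr846 of MOR149, with 2537 dorsal and 121 ventral CPM. Its neighbour Olfr847, the other MOR149 gene, led 2 transgenic Gap43-led immature cells, one with 569 dorsal and 71 ventral CPM and one with 766 and 855. Both sums were 789 CPM in the neuron led by Olfr855. In the second block the 7 neurons without a larger dorsal sum were led by Olfr907, Olfr910 and Olfr921, all of MOR165, and by Olfr943, Olfr944, Olfr948 and Olfr972, all of MOR171. Of MOR165, Olfr921 had 0 dorsal and 1658 ventral CPM, Olfr910 115 and 633, and Olfr907 282 and 423. Of MOR171, Olfr943 had 202 and 1282 CPM, Olfr944 220 and 1542, Olfr948 0 and 492, and Olfr972 631 and 803. The sums of Olfr907 and Olfr972 were within 2-fold of each other. The Olfr972 neuron lay in a cluster with Nqo1 and Acsm4 among its leading genes, and so grouped with dorsal neurons. Those of Olfr907, Olfr943 and Olfr948 lay in the Esp22-led cluster. Dorsal neurons stood between these numbers, led by Olfr916 and Olfr918 among the first and by Olfr968 and Olfr969 before Olfr972.

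Within a family the zone was mostly the same. All 11 neurons led by 6 MOR224 genes had the larger dorsal sum, as did the 5 of MOR162, the 4 of MOR161, the 4 of Olfr878 and the 3 of MOR223, and the 6 of MOR145 (Olfr868 and Olfr873) had the larger ventral sum. MOR171 was mixed, with 15 of 19 neurons dorsal by this measure. For each of the 10 members that led 2 or more neurons, 34 neurons in all, every neuron fell on the same side. Gap43-led immature cells lay on the side of the Omp-high neurons for 5 of the 6 members that led both: Olfr859 (162 dorsal and 704 ventral CPM), Olfr873 (527 and 1362), Olfr938 (536 and 0), Olfr943 (97 and 923) and Olfr944 (802 and 1605). Olfr835, with 455 and 379 CPM in an immature cell against 137 and 684 in an Omp-high neuron, did not. Neither did Olfr876 (802 and 1283) and Olfr981 (368 and 663) in the Tex15-led cells they led, a stage at which the ventral sum was the larger in the median cell of both libraries (297 and 1381 CPM, and 299 and 2431). The Gap43-led stage leaned ventral too. Nqo1, Acsm4 and Robo2 were at 66.8, 21.0 and 179 CPM over its transgenic cells and at 36.5, 9.82 and 178 over its wild-type cells. Ncam2, Nfia, Nfib, Nfix and Nrp2 were at 282, 72.2, 276, 277 and 164 CPM and at 259, 129, 337, 248 and 332 CPM. The ventral match of Olfr859, Olfr873, Olfr943 and Olfr944 thus cannot be told apart from the stage, and only Olfr938 matched on the dorsal side. The single neuron led by Olfr160, in the wild type, had 1500 dorsal and 0 ventral CPM, as its second-block neighbours did.

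**Figure D2:**
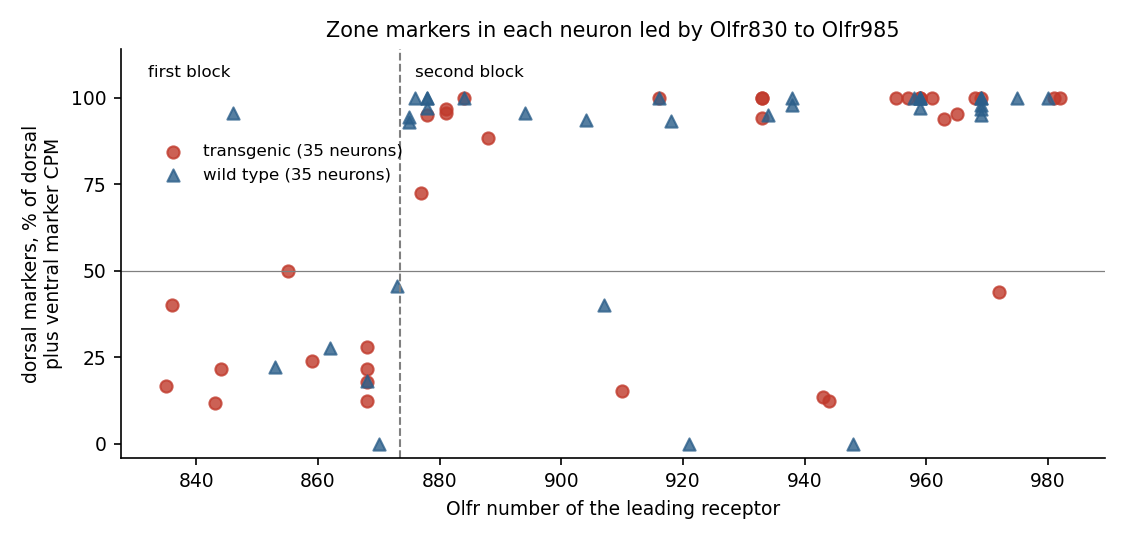
Share of dorsal markers in the summed CPM of dorsal and ventral markers (y axis, %) for each of the 70 member-led Omp-high neurons, by the number of the leading gene (x axis); circles are transgenic and triangles wild-type neurons, the dashed line separates the blocks and the horizontal line marks equal sums. Neurons left of the dashed line lie at or below 50% except the 1 led by Olfr846, and those to the right lie at 88.5% or above except for Olfr877 and the 7 neurons led by Olfr907, Olfr910, Olfr921, Olfr943, Olfr944, Olfr948 and Olfr972.

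Few other genes differed 2-fold between member-led neurons and those led by other ORs. Of 6491 and 6655 genes measured outside the OR family (at least 50 UMIs and 20 CPM in 1 of the cell groups), 0.139% and 0.346% were at least 2-fold higher and 1.25% and 2.19% at least 2-fold lower in member-led neurons of the transgenic and wild-type library, with medians of 0.03 and 0.03 on the log2 scale. Of the 6273 genes measured in both libraries, 2 were at least 2-fold higher and 24 at least 2-fold lower in member-led neurons of both. The 35 member-led neurons of each library gave far fewer UMIs than the 536 and 403 neurons led by other ORs. A gene high only in member-led neurons thus passed the minimum of 50 UMIs less readily than one high only in the others. The excess of lower genes is favoured by this filter and shows nothing about the members. None of the 11 and 12 measured factors of OR choice and heterochromatin (among them Lhx2, Ldb1 and Ebf1) was past 2-fold, with medians of −0.04 and 0.15. The same held for the 3 measured transport genes (medians −0.18 and 0.09) and for the 13 genes of odour transduction, among them Gnal, Adcy3 and Cnga2 (0.04 and −0.06).

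Of the axon guidance list, 13 of 15 genes were measured in each library. The teneurin Tenm4 was at 138 against 60.5 CPM in the transgenic library (log2 1.21, past 2-fold) and at 61.7 against 32.2 CPM in the wild type (0.98, just under). Tenm2, another teneurin, named here after its values were seen, was just under 2-fold in both, at 526 against 269 CPM (0.97) and 432 against 222 CPM (0.96). None was 2-fold lower in the transgenic library. In the wild type 2 were, Nrp2 at 64.0 against 151 CPM and the adhesion molecule Kirrel2 at 237 against 492 CPM. Pcdh10, also named after its values were seen, was just short of it there, at 56.9 against 118 CPM (transgenic 56.0 against 81.1). The dorsal sum was the larger in 60.0% and 77.1% of member-led neurons, against 33.6% and 35.5% of those led by other ORs. Differences in these guidance genes thus cannot be told apart from zone. No list gene was past 2-fold in the same direction in both libraries apart from zone markers: Acsm4 was higher (396 against 186 CPM in the transgenic library and 330 against 157 in the wild type), and Nfia (6.0 against 24.3 and 16.6 against 58.0) and Nfib (72.0 against 186 and 61.7 against 232) were lower. Of possible admixture, the erythroid gene Hbb-bs was lower in member-led transgenic neurons, at 82 against 227 CPM. In the wild type it was at 80.6 against 62.0 CPM. Hba-a1, Hba-a2 and Hbb-bt were lower by less than 2-fold in the transgenic library and were not measured in the wild type. The part of erythroid RNA in the other values was not tested. Of the 5 sustentacular markers 2 and 0 were measured, and neither of the 2 was past 2-fold.

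Before maturity, traces of members were most frequent in 1 stage. A trace here is a member at 1 or 2 UMIs that does not lead the cell. The earliest immature cells, a cluster led by Tex15 and Crabp1 with Tex15 at 3930 and 3260 CPM, held a trace in 41 of 64 cells (64.1%, 51.1 to 75.7%) in the transgenic library and 6 of 12 in the wild type (50%, 21.1 to 78.9%). GBC-like cells held one in 12.1% of 58 transgenic cells (4.99 to 23.3%) and in 0 of 11 wild-type cells (exact interval up to 28.5%, or 27.3% by a floor of 3 counts). INP-like cells held one in 11.3% of 71 (4.99 to 21.0%) and 13.3% of 15 cells (1.66 to 40.5%). Cells outside the neuronal lineage, taken as the background, held one in 10.1% of 621 (7.88 to 12.8%) and 10.1% of 562 cells (7.77 to 12.9%). The intervals of the GBC-like and INP-like cells overlapped that background, and those of the earliest immature cells lay above it.

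After that stage traces were again infrequent. Gap43-led immature cells held one in 6.12% of 147 cells (2.84 to 11.3%) of the transgenic library and 9.3% of 43 (2.59 to 22.1%) of the wild type, the Esp22-led cluster in 4.11% and 7.94%, and the other Omp-high neurons in 1.88% of 638 (0.976 to 3.26%) and 4.87% of 411 cells (3.0 to 7.42%). In the last of these stages the interval lay below that of the background in both libraries as deposited, and after thinning in the transgenic library only (1.32%, 0.574 to 2.59%; wild type 2.19%, 0.948 to 4.26%). This rests in part on Olfr920, described below. Without it the background was 7.41% (5.47 to 9.76%) and 7.12% (5.13 to 9.57%), which overlapped the wild-type interval, and after thinning 3.52% (2.1 to 5.5%) and 3.37% (1.9 to 5.5%), which overlapped both. The earliest immature cells without Olfr920, at 62.5% (49.5 to 74.3%) and 50%, stayed above that background as deposited and thinned. With every cell thinned to 7900 UMIs the shares of the earliest immature cells were 54.0% of 63 (40.9 to 66.6%) and 33.3% of 12 (9.92 to 65.1%), beside 4.88% of 512 (3.18 to 7.12%) and 4.72% of 445 (2.94 to 7.12%) outside the lineage. Thinning left out cells of fewer UMIs, 1 and 0 of the earliest immature cells and 109 and 117 of the cells outside the lineage. Median depths were 13503.5 and 16826.5 UMIs in the earliest immature cells and 13473 and 12511 UMIs outside the lineage.

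**Figure D3:**
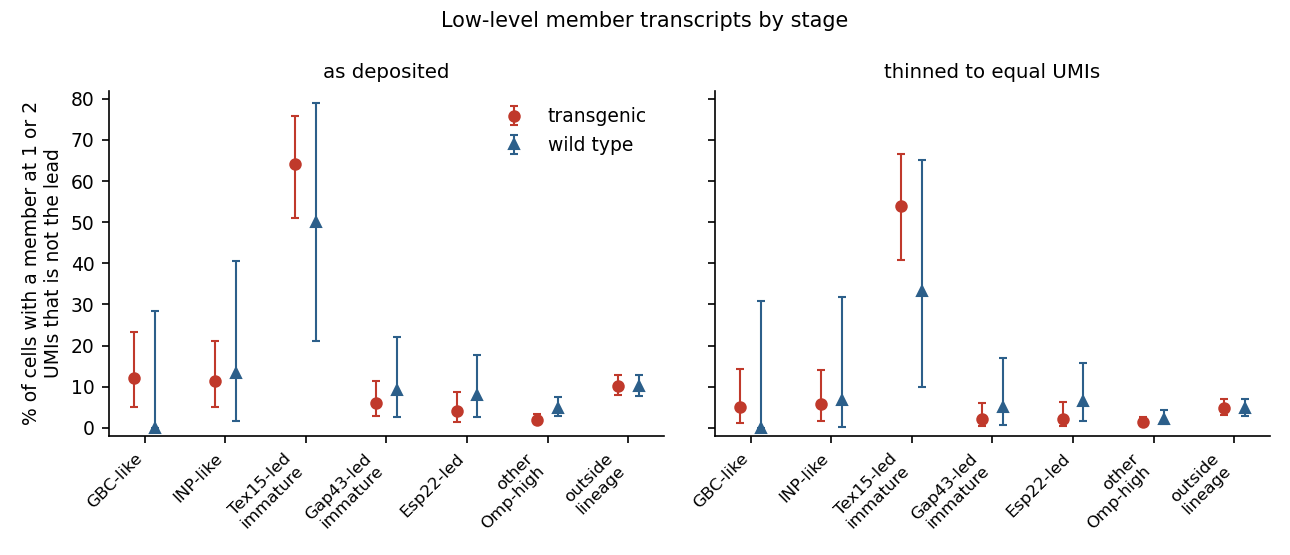
Share of cells with a member at 1 or 2 UMIs that does not lead the cell (y axis, %) by stage (x axis), as deposited on the left and with each cell thinned to 7900 UMIs on the right; circles are the transgenic and triangles the wild-type library, and bars are exact binomial 95% intervals. The Tex15-led immature cells reach 64.1% and 50% as deposited, and the other stages lie between 0 and 13.3%.

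The traces in the earliest immature cells came from many members of both blocks. In the transgenic library 91 detections at any level covered 48 of 105 members, 13 of the first block and 35 of the second, and 79 of the 91 were single UMIs. In the wild type 18 detections covered 14 members. A cell held up to 7 members in each library, and 14 transgenic and 3 wild-type cells held members of both blocks at once. Traces of members made up 13.7% and 9.55% of all OR traces in these cells, while members are 9.51% of ORs. Cells outside the lineage held a mean of 1.41 and 1.04 ORs with a UMI and Gap43-led cells 2.56 and 2.3, leads included. The earliest immature cells held 10.2 and 15.8, so the peak was not particular to the members. No share of all ORs stands beside the 48 and 14 members, so their breadth in these cells has no background. Among the pairs of members found together in such a cell, 4 of 92 in the transgenic library (4.35%) and 2 of 34 in the wild type (5.88%) differed by at most 3 numbers, beside 3.88% of all 5460 possible pairs.

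Olfr959 was found in the most earliest immature cells of the transgenic library (7), followed by Olfr981 (5) and Olfr855 (4), while Olfr855, Olfr857, Olfr981 and Olfr983 were found in 2 wild-type cells each. Olfr959 also had the most UMIs of all members in barcodes under 100 UMIs, 128 and 46, which hold free RNA, and it was found in 5 transgenic and 1 wild-type cells outside the lineage; its part in the traces was not tested. Olfr981 had 5 and 3 UMIs in such barcodes.

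Only a few immature cells were led by a member. In the Tex15-led cluster 3 transgenic cells were, by Olfr876 (12 UMIs), Olfr981 (5) and Olfr851 (3), and no wild-type cell was. The cell led by Olfr876 also held 3 UMIs of Olfr874, and the leading member gave 57.1% of its OR UMIs. In the Gap43-led cluster 7 transgenic and 3 wild-type cells were led by a member, with 8 to 826 and 13 to 121 UMIs. The highest count of any member in any kept cell was there: Olfr873 (MOR145) had 826 UMIs in a transgenic cell of 22767 UMIs, with 527 dorsal and 1362 ventral CPM, against 129 UMIs in the wild-type Omp-high neuron it led. In the wild type the genes with the highest count in a cell were Olfr959 (613 UMIs) and Olfr870 (399 UMIs, MOR141), both in Omp-high neurons.

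Olfr920, a MOR165 gene, was found in more cells outside the lineage than any other member and in no Omp-high neuron. Outside the lineage it was found in 19 of 621 cells of the transgenic (3.06%, 1.85 to 4.74%) and 21 of 562 of the wild-type library (3.74%, 2.33 to 5.66%), and in 0 of 784 and 0 of 474 Omp-high neurons. A floor of 3 counts allows up to 0.383% and 0.633% of these neurons to hold a UMI, and the exact intervals reach 0.469% and 0.775%; neither limits how many transcribe the gene below this depth. Median depths of the compared groups were 13473 and 12511 UMIs outside the lineage and 14322.5 and 12580 UMIs in Omp-high neurons. Its UMIs were spread over 8 and 7 of 14 cell classes, basal, stromal, vascular, immune and supporting cells among them, with at most 2 UMIs in a cell, and 2 of the 64 transgenic earliest immature cells held it. Barcodes under 100 UMIs held 18 of its UMIs (transgenic library) and 1 (wild type), and it led no cell. Olfr984 (MOR239) was next with 7 and 4 such cells, at most 1 UMI each, and in no Omp-high neuron, followed in the transgenic library by Olfr889 and Olfr959 with 5 cells each and in the wild type by Olfr875 and Olfr976 with 3 each.

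Outside the lineage 1 transgenic and 2 wild-type cells were led by a member. The first was led by Olfr869 (85 UMIs) and 1 of the second by Olfr904 (269 UMIs), beside 126 UMIs of Olfr618; these cells held 84041 and 72019 UMIs in a sustentacular-like cluster. The remaining one was led by Olfr870 with 3 UMIs.

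In the transgenic library 6 of 35 member-led neurons held the transgene at 3 or more UMIs (17.1%, 6.56 to 33.6%), against 48 of 536 neurons led by other ORs (8.96%, 6.68 to 11.7%), with overlapping intervals. At 1 UMI or more the shares were 31.4% and 31.3%. The 6 neurons were led by Olfr835 and Olfr836 of the first block (12 and 3 transgene UMIs) and by Olfr878 (9), Olfr961 (12), Olfr968 (10) and Olfr969 (3) of the second. In the first of these the lead had 15 UMIs and the transgene 12, and in the others the lead had 36 to 265 UMIs. No wild-type neuron led by a member held a transgene UMI (0 of 35, exact interval up to 10%).

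Summed levels of single members rest on few neurons each. In the Omp-high neurons 18 of 105 members had at least 50 UMIs and 20 CPM in 1 library. Of these 4 were at least 2-fold higher (22.2%) and 12 at least 2-fold lower (66.7%) in the transgenic library, beside 25.6% and 60.0% of 215 measured ORs and 0.845% and 1.37% of 6865 other genes. A member passed this filter with as little as 1 neuron in 1 library, so a ratio past 2-fold follows from the filter for most and supports nothing about the genotypes. Summed over all members the level was 459.8 CPM in the transgenic and 1004 CPM in the wild-type neurons, and over all ORs 6027 and 9786 CPM. These sums include neurons without a leading OR, as 571 of 784 transgenic and 438 of 474 wild-type Omp-high neurons had one. They are therefore not levels per led neuron.

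The largest ratios belonged to Olfr921 (0 and 324 UMIs, at least 197-fold lower in the transgenic library against a floor of 3 UMIs over its neurons), Olfr958 (0 and 200 UMIs, at least 122-fold) and Olfr870 (1 and 399 UMIs), and in the other direction to Olfr881 (515 and 0 UMIs, at least 94-fold higher), Olfr968 (265 and 0 UMIs) and Olfr981 (256 and 0 UMIs). Each of these rests on 1 leading neuron, or on 2 for Olfr881. Olfr959, with 2 and 4 leading neurons, was at 103 and 369 CPM (log2 ratio −1.85, −1.95 to −1.74), Olfr868, with 4 and 1, at 61.8 and 32.9 CPM (0.91, 0.68 to 1.14), and Olfr916, with 1 each, at 19 and 22.2 CPM (−0.23, −0.54 to 0.09). These intervals count each UMI as independent, although a few neurons gave most of them, and so cover no spread between neurons or animals. The leading counts per neuron given above overlapped between the libraries for Olfr959, Olfr868 and Olfr969.

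Many members were not seen in the kept cells. In the transgenic library 29 members had no UMI (27.6%, beside 24.8% of all ORs) and in the wild type 47 had none (44.8%, beside 43.9%). Over all barcodes with a UMI 12 members in each library remained without any (11.4%, beside 6.61% and 7.79% of all ORs). Both libraries lacked Olfr850 and Olfr871 of the first block and Olfr883, Olfr891, Olfr902, Olfr926 and Olfr952 of the second. Olfr938 had no UMI in any transgenic barcode but 96 UMIs in the wild-type library, where it led 2 neurons.

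Most members without a UMI in any barcode had a short annotated transcript end, while those without one in the kept cells had median ends of 773 and 716 bases. In GENCODE vM21, which may differ from the authors' annotation, 13 members have under 100 annotated bases after the stop codon, and 7 of these have none, while the median over the 105 members is 1667 bases. Of these 13 members 9 had no UMI in any transgenic barcode and 8 in no wild-type barcode, against 3 and 4 of the other 92. Of the 7 members absent from both libraries, 6 are among the 13, and the other, Olfr902, has 773 bases. Over all ORs 41 of 117 with under 100 bases and 6 of 987 with more were absent from every barcode. By library 49 (transgenic) and 64 (wild type) of these 117 ORs had no UMI in any barcode, against 24 and 22 of the 987. A 3′ library counts reads near transcript ends, so an end missing from the annotation and a gene that is not transcribed give the same 0, and which applied was not tested. Only Olfr938, with 98 bases, led a neuron among the 13.

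**Figure D4:**
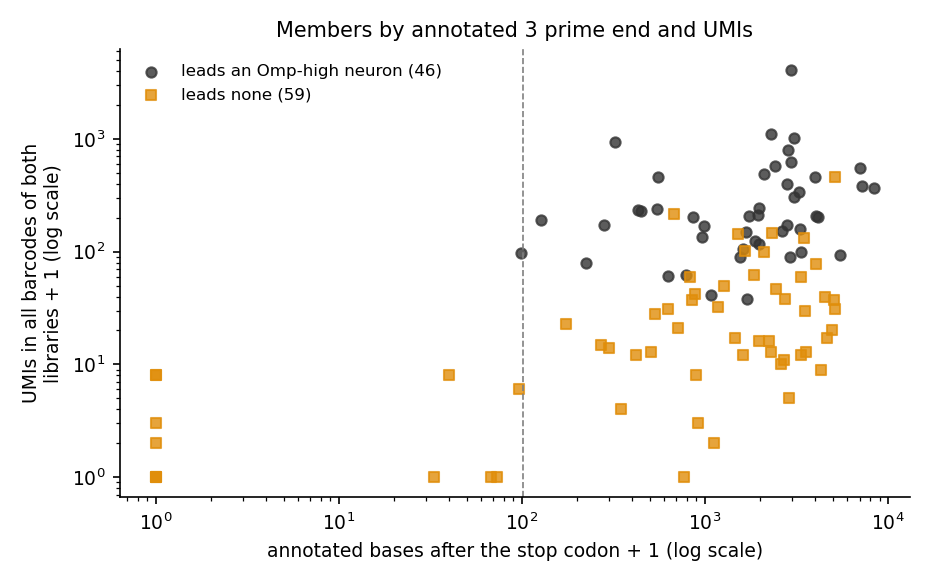
Annotated bases after the stop codon plus 1 (x axis, log scale) and UMIs in all barcodes of both libraries plus 1 (y axis, log scale) for each of the 105 members; circles are the 46 that lead an Omp-high neuron, squares the 59 that lead none, and the dashed line marks 100 bases. The 13 members left of the line hold 6 of the 7 with no UMI, and 1 of them leads a neuron.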

How the data were processed

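The authors deposited unfiltered matrices of raw UMI counts (genes by barcodes). Per the submitters' processing notes, the tool was Cell Ranger 6.1.1 and the build GRCm39 (mm39), whereas the header of the matrices names Cell Ranger 4; neither source gives the annotation. Kept barcodes had at least 5827.5 (transgenic) or 5317.7 UMIs (wild type), which is 10% of the 99th percentile among the top 5000 barcodes, 500 genes or more, and no more than 10% of UMIs from mitochondria. Scrublet then removed 4 and 2 cells, too few for doublets to count as treated, so an alternative removed the top 5% of scores. Both libraries' cells went into 1 clustering with no integration (scanpy 1.11.5; 2000 variable genes, 30 components, 15 neighbours, Leiden resolution 1), leaving out OR, transgene, mitochondrial and ribosomal features among others. Clusters were named from fixed markers (mean log2 excess of 1, at least 3 markers at 2-fold, 5 CPM added); a name was dropped where the leading genes spoke for another class, and the Omp-high population goes by the score alone, a choice made after seeing the data. Log2 ratios had 1 UMI added to each sum and conditional binomial intervals. The ratio, lead and thinning code was tested on simulated data. Reference names, gene order and windows come from RefSeq tables of GRCm38.p6 (all 105 members matched by symbol, 91 with a window) and transcript ends from GENCODE vM21; coordinates of that build were not combined with the files.

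The members and lists were chosen with earlier results of these data known. Genes are named by rule: per library the 5 leading most neurons, those leading at least 2 neurons in each library, pairs in 1 cell, those in most earliest immature cells and in most cells outside the lineage, the 3 largest ratios in each direction, the 2 highest counts in a cell, and zone and list genes past 2-fold. The windows shown were chosen after values were seen, as the windows of the members named first in that rule overlap annotated exons. Reads of near-identical members cannot be told apart from these counts.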

Additional observations from a re-analysis of the deposited data

Results flagged for a closer look

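A pseudogene feature of the same number range, outside the members, held a signal in 1 transgenic cell. Olfr839-ps1 had 54 UMIs in an Omp-high neuron of 14265 UMIs in which no Olfr gene had a UMI and the transgene had 0, and no UMI in the kept wild-type cells. The neuron had 421 dorsal and 1192 ventral CPM. The feature had 66 UMIs over all transgenic and 16 over all wild-type barcodes, while Olfr896-ps1 and Olfr911-ps1 had at most 1 UMI in either library.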

How the results depend on the processing

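No paired analysis was possible because each genotype has 1 library, which also leaves no replicate to omit. Of 210 values recomputed under 20 other settings, 193 stayed within the interval of the main value or, for counts, within 1.5 times of it. Wide intervals make this easy to meet. The wild-type share of neighbouring pairs, from 1 pair, has an interval of 2.5 to 100% and could hardly leave it. At a minimum of 2000 UMIs per cell (2012 and 1316 cells), 18 members led a transgenic neuron. Traces outside the lineage were 7.33% and 7.70%, and 8 measured members were 2-fold higher in the transgenic library. There the cluster led by Calb2 and Stmn4 reached no class. Its neurons were not counted as Omp-high but among the 1010 and 792 cells outside the lineage, against 621 and 562 in the main setting. Thinned to 7900 UMIs, 45 members had no UMI in transgenic cells, and traces were 4.88% and 4.72% outside the lineage and 2.80% in wild-type Omp-high neurons. Over all barcodes 12 and 12 members had no UMI. With a lead at 1 UMI, 16.5% of the transgenic neurons led by other ORs held the transgene at 3 UMIs. With members measured at 20 UMIs over both libraries, 21 were 2-fold higher and 22 lower. Without the Esp22-led cluster, an alternative chosen after seeing the data, neurons led by other ORs were dorsal in 41.1% and 41.4%, as few of the neurons removed were dorsal; the shares of both blocks stayed within their intervals, as they did without Robo2. Without Olfr920, also chosen after seeing the data, traces outside the lineage were 7.41% and 7.12%, since Olfr920 is in 19 and 21 of those cells. The share of neighbouring pairs has no transgenic value at 3 UMIs or above. The main limits are 1 animal per genotype, strain and age that differ with genotype, 16 first-block neurons in all, 12 wild-type earliest immature cells, and a depth at which 1 to 3 UMIs of a member in a cell are near the background.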
